A study of Gossypium hirsutum with 2 samples.

Results

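The vacuolar proton pumps and the sodium/proton exchanger of Upland cotton (Gossypium hirsutum) were represented on the Affymetrix cotton array by 5 probe sets for 4 genes. They were chosen by name, as every probe set that the platform annotation assigns to a single gene with the alias VP, NHX1, VATE or DET3, and they are 5 of the 23977 plant probe sets on the array and 4 of the 520 genes with a probe set of their own in that annotation. VP (LOC107889146, Ghi.5861.1.S1_s_at), NHX1 (LOC107891968, Ghi.8122.1.S1_s_at) and DET3 (LOC107948506, Ghi.6073.1.S1_s_at) had 1 probe set each, and VATE (LOC107947841) had 2, Ghi.7738.1.S1_s_at and GhiAffx.17244.1.S1_s_at. No probe set shared between several annotated genes included any of the 4 loci. All 5 were measurable, meaning that the mean of the log2 signals reached the median over plant probe sets, a signal of 72.3, so none had to be marked as dim.

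The leaves came from field-grown plants of the cultivar Acala 1517-99, drought tolerant and aged 9 weeks per the labels, and the third leaf from the top was taken from 8 plants per replicate in 3 plots per treatment. Well-watered plots had been irrigated, and drought-stressed plots received no furrow irrigation and were harvested 9 days after water was withheld. The values are MAS5 signals, linear intensities that summarise the probes of a probe set, from 1 array of well-watered and 1 array of drought-stressed leaves, and whether the plots were pooled is not stated. A single array stood for each treatment. The differences below therefore have no replicate error and no p-value, and each describes these 2 arrays.

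The vacuole fills most of a mature leaf cell and holds much of its water, ions and organic acids. Its membrane, the tonoplast, carries 2 kinds of proton pump. The V-type ATPase is a rotary enzyme of many subunits driven by ATP, and the vacuolar pyrophosphatase is a single polypeptide driven by pyrophosphate, a by-product of biosynthesis. The proton gradient they build powers exchangers such as NHX1, which move sodium or potassium into the vacuole. In Arabidopsis and other plants this system is known for its part in salt tolerance, in cell turgor and in osmotic adjustment during water deficit.

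Transcripts of the pyrophosphatase, the exchanger and subunit E of the ATPase gave higher signals on the drought array, and the other ATPase subunit, DET3, gave nearly the same signal on both. The signal of VP, the vacuolar pyrophosphatase, was 2490 under irrigation and 3242 under drought, a ratio of 1.30. NHX1 measured 268 and 341, a ratio of 1.27. The ratios of drought to well-watered signal were 1.15 and 1.42 for the pair of VATE probe sets and 0.98 for DET3. Thus 4 of 5 probe sets had a log2 difference (drought minus well-watered) above 0, where 49.6% of the 11989 measurable probe sets did (52.2% in the brightest and 45.5% in the middle of 3 signal classes), and the member median was 0.35 beside -0.01 for all measurable probe sets. The members share the same 2 arrays and were chosen with these values known, so the count is a description. In bulk leaf RNA a change in the share of a cell type and a change in RNA per cell cannot be told apart.

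**Figure D1:**
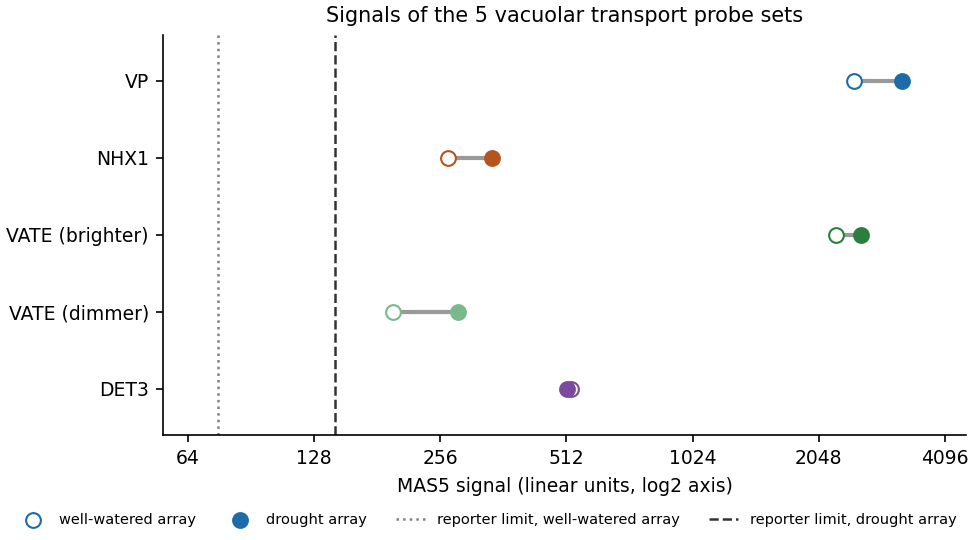
MAS5 signal (log2 axis) of each of the 5 probe sets on the well-watered array (open circles) and the drought array (filled circles), with the 95th percentile of dim reporter controls on each array as vertical lines. All points lie right of the line of their own array, and drought signals lie right of well-watered ones for VP, NHX1 and both VATE probe sets and almost on top of them for DET3.

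Signals of different probe sets cannot be compared as transcript amounts. All member signals stood above a limit set on each array from the reporter controls. These are probe sets for marker and vector genes that were not part of the comparison. The 95th percentile of 51 of them, all but the brightest, was 75.7 for well-watered leaves and 144 for drought leaves. The lowest member signals, those of the dimmer VATE probe set, were 2.62 and 1.96 times these limits. The signals of NHX1 were 3.53 and 2.37 times the limits, and those of VP 32.9 and 22.5 times. The limit was higher on the drought array, and the part of nonspecific signal in the differences was not tested. The measurable minimum of 72.3 lay below both limits, so shares over all measurable probe sets include some probe sets at reporter level.

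The size of a difference has to be read against signal strength, because the spread of differences narrowed with brightness. The measurable probe sets were divided into 3 equal classes of mean signal. VP, DET3 and the brighter VATE probe set fell in the brightest class, from a mean signal of 415 up, where the quartiles of all differences were -0.16 and 0.19. NHX1 and the dimmer VATE probe set fell in the middle class, with mean signals from 152 to 415, where they were -0.30 and 0.20.

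VP had a log2 difference of 0.38. In its class 7.18% of the 3997 probe sets had a difference at least as high, and its mean signal exceeded that of 97.4% of plant probe sets. The ID ends in _s_at, as do those of all 5 members, which marks a probe set whose probes match more than 1 transcript. Upland cotton is an allotetraploid with A and D copies of most genes, so each value can sum over copies of a gene.

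NHX1, the exchanger that uses the gradient, had a log2 difference of 0.35. A difference at least as high was found in 14.7% of the 3996 probe sets of the middle class. The differences of VP and NHX1 were 0.03 apart, although their signals lie in different classes.

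VATE encodes subunit E, part of the peripheral stalk that holds the catalytic head of the V-type ATPase still while the rotor turns. Its brighter probe set, Ghi.7738.1.S1_s_at, gave signals of 2247 under irrigation and 2576 under drought, which is a log2 difference of 0.20. Its dimmer probe set, GhiAffx.17244.1.S1_s_at, measured 198 and 282, a log2 difference of 0.51. Both were higher on the drought array, but the brighter one was unexceptional for its class, where 23.1% of probe sets had a difference at least as high, against 7.41% in the class of the dimmer one. The mean over both was 0.35.

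DET3 was named after an Arabidopsis mutant, de-etiolated3, and encodes subunit C, which joins the stalk to the membrane part of the ATPase. Its signals were 526 under irrigation and 515 under drought, with a log2 difference of -0.03, near the middle of its class, where 56.7% had a difference at least as high. It was the only member with a lower drought signal, by 10.3 signal units.

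**Figure D2:**
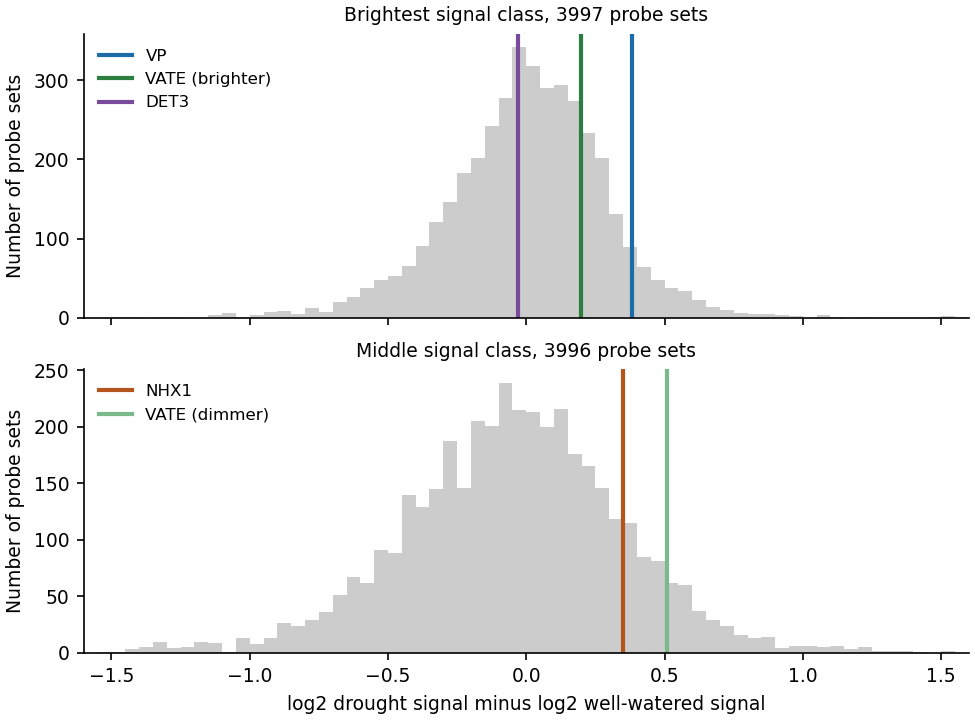
Histograms of the log2 difference (drought minus well-watered; bins of 0.05, number of probe sets on the y axis) in the brightest class (upper panel, 3997 probe sets) and the middle class (lower panel, 3996), with vertical lines for the members of each class; the axis ends at 1.6 on either side, with 2 and 18 probe sets beyond it. VP at 0.38, NHX1 at 0.35 and the dimmer VATE probe set at 0.51 lie on the right shoulder of their classes, the brighter VATE probe set at 0.20 lies closer to the centre and DET3 at -0.03 lies in the centre.

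A lower threshold was set at a ratio of 5 to 4, a log2 difference of 0.32. VP, NHX1 and the dimmer VATE probe set were higher by at least this much (3 of 5), where 18.5% of all measurable probe sets were, 10.2% in the brightest class and 16.3% in the middle class. Lower by at least this much were 0 of 5, where 20.8% of measurable probe sets were. At 2-fold, the members counted 0 in either direction, beside 1.82% higher and 2.56% lower over all measurable probe sets. The choice by name did not use probe-set design, yet all 5 have IDs of probe sets designed from G. hirsutum and ending in _s_at. In the 3993 measurable probe sets of that kind, 49.1% had a difference above 0 and 15.1% were higher by 0.32 or more, and among the 200 measurable probe sets with 1 named gene the shares were 49% and 17%.

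How far probe sets can differ without replicates was gauged from genes with 2 or more measurable probe sets. The 2 brightest of each gene were paired. VATE aside, 59 genes had such a pair. In the 36 pairs with both probe sets above the dimmest class, as all members are, the gap between the log2 differences had a median of 0.20, and the spread per probe set was 0.26 (SD from the gaps). Over all 59 pairs, dim ones included, this SD was 0.44, above the differences of VP and NHX1. Pairs were formed without regard to the orientation that the IDs mark. VP at 0.38, NHX1 at 0.35 and the dimmer VATE probe set at 0.51 were 1.47, 1.35 and 1.97 times the SD of 0.26 away from 0, and the brighter VATE probe set was 0.76 times it away. Both differences of a pair come from the same 2 arrays. Their gap carries probe and transcript differences and measurement noise but no variation between plants or plots, so this SD is not an error of the drought comparison.

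**Figure D3:**
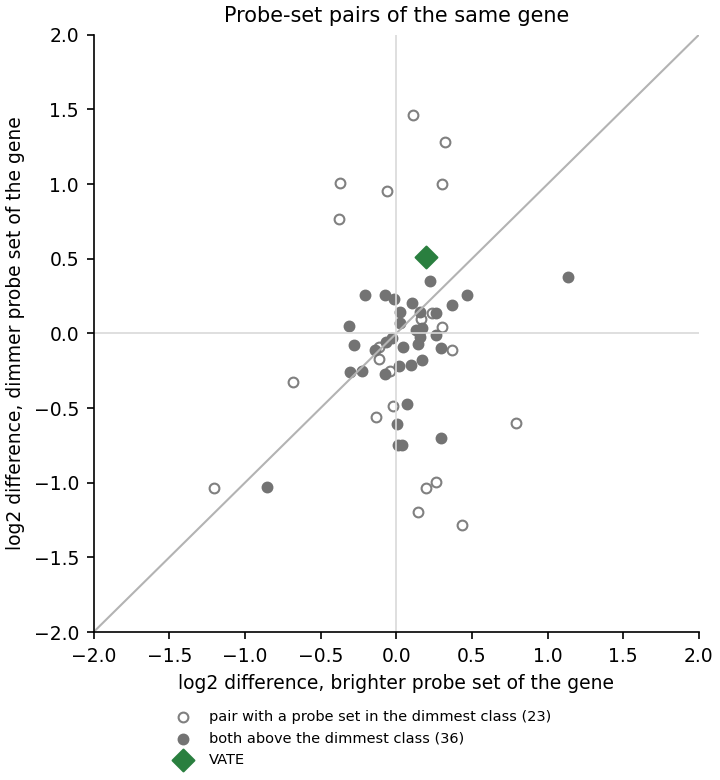
Log2 difference (drought minus well-watered) of the 2 brightest measurable probe sets of the same gene, for 59 genes and for VATE (diamond). The brighter of the 2 is on the x axis and the dimmer on the y axis. Filled circles are the 36 pairs with both probe sets above the dimmest signal class. Open circles are the other 23, and the diagonal marks equal differences. VATE lies at 0.20 and 0.51, with both differences above 0.

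The VATE pair had a gap of 0.31, and 11 of the 36 pairs had a gap at least as large. In 19 of these 36 pairs both differences had the same sign, as in VATE. In 3 of the 36, both differences reached 0.20, the smaller VATE value.

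Between members, 10 pairs of differences can be set side by side. The SD of such a gap, from the same 36 pairs, was 0.37. The widest gap, 0.54, was between the dimmer VATE probe set and DET3, 2 subunits of the same enzyme, and was 1.47 times this SD. The gap between the brighter VATE probe set and DET3 was 0.23, or 0.62 times the SD. VP and DET3 were 0.41 apart (1.12 times the SD) and NHX1 and DET3 0.38 apart (1.03 times), and each of the other gaps was smaller than the SD. No gap between members reached 2 times the SD, and at least as wide as the widest were 6 of the 36 same-gene gaps.

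Both arrays had been brought to the same trimmed mean, so each difference is relative to the total signal. The 27 probe sets of the hybridisation spike-ins, bacterial and phage transcripts added to each sample, gave differences from 0.05 to 0.40. Their median was 0.25. Set against that median, VP was 0.13, NHX1 0.10, and the VATE probe sets -0.05 and 0.26, while DET3 was -0.28. On that scale 3 of 5 were above 0, where 24.2% of measurable probe sets were, and 0 of 5 were higher by 0.32 or more, where 7.77% were. The median of measurable probe sets moved to -0.25. This scaling subtracts the same amount from every probe set, so the order of the members and their places relative to that median are fixed. As a further reference, 15 probe sets of elongation factor 1-alpha, actin and tubulin genes were used, some of them from the same gene. Their differences were widely scattered, from -0.67 to 0.64, with a median of 0.14. Relative to this reference median, VP was 0.24, NHX1 0.21, the VATE probe sets 0.05 and 0.37, and DET3 -0.17. On this scale 4 of 5 were above 0, where 34.0% of measurable probe sets were, and the median of measurable probe sets was -0.15. Higher by 0.32 or more was 1 of 5, and the share of measurable probe sets at that threshold was not counted on this scale.

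**Figure D4:**
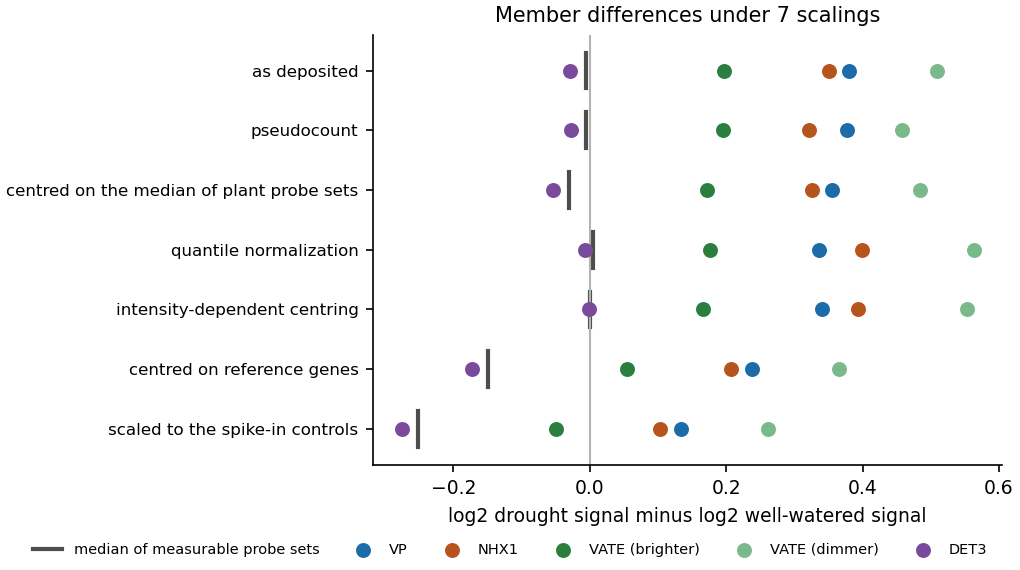
Log2 difference (drought minus well-watered, x axis) of the 5 members under 7 scalings (rows, of which those by plant median, reference genes and spike-ins shift all probe sets by a constant), with the median of measurable probe sets as a short bar in each row. The brighter VATE probe set crosses 0 in the spike-in row, at -0.05, and positions relative to the bar could change only with the pseudocount, quantile normalization and intensity-dependent centring.

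The wider list of proton and ion transport genes of the tonoplast and plasma membrane (other ATPase subunits and pyrophosphatases, NHX and SOS1 exchangers, cation/proton exchangers, vacuolar potassium and chloride channels, plasma membrane proton ATPases and tonoplast aquaporins) had 0 further probe sets with a single named gene. The gene table held NHX6 and 2 SOS1 loci under such aliases, none of them assigned a probe set. Because 23234 plant probe sets have no gene in the annotation, this says nothing about whether such transcripts were present.

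CBL calcium sensors, the kinase SOS2 and Rab7 could be looked at through 6 probe sets, taken from gene groups whose values were already known. In Arabidopsis the calcium sensors CBL2 and CBL3 sit on the tonoplast and act on the V-type ATPase, and the kinase SOS2 acts on both the ATPase and NHX exchangers. The signal of CBL3 was 158 under irrigation and 225 under drought, and that of CBL2 was 1070 and 1117. SOS2 measured 802 and 828. Rab7, a small GTPase of membrane traffic to the vacuole, measured 502 and 715, with a log2 difference of 0.51. Shares of the signal class were not counted for these probe sets. Against the spike-ins CBL3 (0.27) and Rab7 (0.26) stayed above 0, while CBL2 (-0.18) and SOS2 (-0.20) did not. The plasma membrane sensor CBL1 measured 61.4 and 99.3 on one probe set and 16.8 and 16.9 on another, all below the reporter limits of 75.7 and 144, so no size is given for its difference.

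Among 195 other measurable probe sets with a named gene, likeness to a member was taken as the distance between the pairs of log2 signals, which with 2 arrays rests on 2 values each. Nearest to NHX1 were the beta-tubulin gene BTub1/BTub2, at 267 and 338, MAPKKK, at 271 and 366, and a probe set of KCS38, at 240 and 326. Nearest to the brighter VATE probe set were FLA14 (2204 and 2751), ACO3 and GST. FLA14 was also among the 3 nearest to VP, after an alpha-tubulin gene listed as ATub3, TUA6 and TubA1 (2940 and 3153) and CBF17. Nearest to DET3 were WRKY15 (534 and 493), paC1 and CRK1. The distance uses both signals, so the nearest probe sets were picked in part for a like difference. Their differences are therefore given as a description only. The alpha-tubulin gene nearest to VP had a log2 difference of 0.10, CBF17 one of 0.04 and FLA14 one of 0.32, against 0.38 for VP. The 3 nearest to NHX1 had differences of 0.34, 0.43 and 0.44, beside its own 0.35.

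The labelled tissue and RNA quality were looked at on other probe sets. The leaf marker RCA1 (rubisco activase) was bright on both arrays, at 16617 and 20148, and was the only one of the leaf marker aliases with a named probe set. Of the fibre and trichome markers, 3 had a probe set, and their summed signal was 662 under irrigation and 606 under drought, a sum carried by GHTTG1, at 341 and 447. E6 measured 216 and 92.3, a log2 difference of -1.23 that is larger in size than that of any member, and HOX3 measured 104 and 66.8 (-0.64); both drought signals lie below the reporter limit of 144. The ratio of 3-prime to 5-prime signal was 14.1 and 4.09 for the actin control (well-watered, then drought), 5.80 and 10.2 for ubq11 and 1.83 and 1.30 for ss1. The drought ratio was lower for actin and ss1 and higher for ubq11, so the 2 arrays were not alike in this measure. The part of these ratios and markers in the member differences was not tested.

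The authors' deposited list of differentially expressed probe sets held 110 of the 24132 probe sets on the array and 0 of the 5 members. With so small a part of the array listed, this absence says little about the members. By signals in the authors' deposited table, the smallest difference on it was -0.73, at 438 in well-watered and 264 in drought leaves, larger in size than that of any member in the value table.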

How the data were processed

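The authors' deposited intensity values are linear MAS5 signals for 24132 probe sets on 2 arrays, for which the submitters' processing notes name GCOS and MAS5 without versions. Per the labels, cRNA came from 5.0 µg total RNA. The trimmed mean (2% from each end) was 250.09 on both arrays, so a common scaling was inferred from the values. The authors' deposited list also gives a detection p-value per probe set and array, per the file headers, which was not used because no member is on it.

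Control probe sets (155) were left out. Each difference is the log2 of the drought signal minus that of the well-watered signal, without a pseudocount. No test was run. The pair SD is the root mean square gap between the 2 brightest measurable probe sets of a gene, divided by the square root of 2. Gene names came from the platform annotation (697 probe sets with 1 gene, 46 with several, 23234 with none) joined by gene identifier to the gene table of Gossypium_hirsutum_v2.1, where all 697 were found; its coordinates were not used. Named genes were all members, wider-list members and the 3 nearest named genes per member gene, besides tissue markers from a fixed list. CBL1, CBL2, CBL3, SOS2 and Rab7 were named outside this rule, after their values were seen. Members and lists were chosen with earlier results of these data known. Intensity-dependent centring used a lowess span of 0.3 and the pseudocount was the 25th percentile of plant signals (26.4). The calculations were tested on simulated data. Python 3.11.15, numpy 2.4.6, pandas 2.3.3, scipy 1.17.1, statsmodels 0.14.6 and matplotlib 3.10.9 were used.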

Additional observations from a re-analysis of the deposited data

How the results depend on the processing

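Each member difference was recomputed under 6 other scalings or offsets, giving 30 values, all of which lay within 0.25 of the value on the deposited scale. VP ranged from 0.13 to 0.38, NHX1 from 0.10 to 0.40, the brighter VATE probe set from -0.05 to 0.20, the dimmer one from 0.26 to 0.56 and DET3 from -0.28 to -0.00078. The brighter VATE probe set changed sign only against the spike-ins. Scaling to reference genes was added after seeing the data. With the brightest probe set of each gene, 3 of 4 were higher, where 49.6% of all measurable probe sets were. Leaving out probe sets ending in _s_at left 0 members, and the wider list and the authors' deposited list held no further value. No paired analysis was possible because each group has 1 array. With 1 array per group no replicate could be left out.

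The background counts depended on scaling and filter. The counts higher and lower by a log2 difference of 0.32 or more were 2215 and 2493, against 932 and 5003 with spike-in scaling, 7376 and 6884 with no filter on signal, and 680 and 868 with a filter at the 75th percentile. At 2-fold they were 218 and 307, against 102 and 628 with spike-in scaling, 110 and 178 with the pseudocount, 3004 and 2838 with no filter, and 24 and 43 with the 75th percentile filter. The filters change the number of probe sets tested. For the shifts with scaling and pseudocount the cause was not tested.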
